A study of Mus musculus with 28 samples.

Results

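The 10 genes of Toll-like receptor and NF-kB signalling were followed across mouse livers and cultured macrophages: Cd14, Tlr2, Tlr4, Tnf, Nfkb1, Nfkb2, Relb, Nfkbia, Tnfaip3 and Birc3. They were chosen by name as a receptor-to-feedback chain, with earlier results of these data known. All 10 were found in each of the 3 deposited tables, among 17752 gene symbols for the livers and 56748 and 21959 gene identifiers for the cultures, and all 10 passed the filter on low counts in each. Messenger RNA was sequenced from 16 livers and 12 cultures. The livers came from male mice 8 weeks old that had all eaten feed without methionine and choline over 4 weeks, which causes fatty, inflamed livers. They formed 4 groups of 4 by label: Lyz2-Cre, which carried the recombinase alone and served as controls, NFATc3-MKO, ASK1-MKO and MDKO, the last meant to lack both proteins. The knockouts are labelled as macrophage knockouts, and Lyz2-Cre acts in myeloid cells (macrophages, monocytes and neutrophils), so hepatocytes and the other liver cells keep the targeted genes. The cultures were bone marrow-derived macrophages, grown for 7 days with 30% L929-conditioned medium, a source of the macrophage growth factor M-CSF. The labels name no stimulus for them. They came from mice with a macrophage knock-in, labelled NFATc3-MKI or ASK1-MKI, 3 cultures each, and each knock-in had its own 3 Lyz2-Cre control cultures. NFATc3 is a transcription factor switched on by calcium and calcineurin, and ASK1, the product of Map3k5, is a stress-activated kinase upstream of JNK and p38. The labels do not say that the replicates came from separate animals or cultures, so the p-values measure the spread between these libraries, which may be technical.

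In this pathway a microbial ligand is sensed at the cell surface by TLR2 or TLR4, the latter with CD14 as a co-receptor that hands over lipopolysaccharide. Adaptor proteins and kinases then activate the IkB kinase complex, the inhibitor IkB-alpha (Nfkbia) is destroyed, and NF-kB dimers enter the nucleus and switch on genes such as Tnf. NF-kB also raises its own brakes: Nfkbia, the ubiquitin-editing enzyme gene Tnfaip3 and the subunit genes Nfkb1, Nfkb2 and Relb are all among its known targets, so their RNA is often read as a trace of pathway activity. In the fatty liver, resident Kupffer cells and recruited monocytes are known as main sources of TNF.

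The sequencing depth was 20601168 to 30834547 counts in 15 livers but 8912117 in MDKO replicate 3. Cultures had 7693464 to 9398163 counts (NFATc3-MKI with controls) and 16051951 to 18728508 (ASK1-MKI with controls). Levels of the targeted genes did not all follow the labels. In livers labelled NFATc3-MKO Nfatc3 lay lower, the direction of the label, but was not called (log2 change −0.36 ± 0.14 SE, edgeR adjusted p = 0.12). Map3k5 was higher in livers labelled ASK1-MKO (0.58 ± 0.15, adjusted p = 0.0262). Hepatocytes and other liver cells keep the targeted genes, so whole-liver RNA cannot show whether myeloid cells lost them. In cultures Nfatc3 was lower in those labelled NFATc3-MKI (−0.26, adjusted p = 0.0371) and Map3k5 lower in those labelled ASK1-MKI (−0.16, adjusted p = 0.0266). Each group name below therefore means the libraries labelled so. MDKO and Lyz2-Cre livers with the same number were closer to each other (SD of the log2 ratio across genes 0.231 to 0.278) than livers within either group (0.291 to 0.536), although no values were identical. The chi-square of counts per degree of freedom is low where libraries differ by little more than counting noise. It was 2.41 between Lyz2-Cre replicate 3 and MDKO replicate 3, and 12.3 to 164 between livers of the same group. Between cultures of the same group in the ASK1-MKI set it was 1.63 to 2.08. The value also falls with depth, and MDKO replicate 3 was shallow. By the SD, NFATc3-MKO replicate 1 was closer to ASK1-MKO replicate 1 (0.443) than to any liver of its own group (0.475 to 0.629). Its Map3k5 level, 43.88 CPM, lay within the ASK1-MKO range (41.66 to 55.14), while the rest of its group stood at 24.08 to 29.47. The reason was not tested. Macrophage markers separated the culture sets. In the ASK1-MKI set Adgre1, which encodes the macrophage antigen F4/80, stood at 2674 to 3330 CPM (counts scaled to library size) and the phagocytosis receptor gene Mertk at 204.2 to 298.7. In the NFATc3-MKI set Adgre1 stood at 30.02 to 36.29 CPM, Mertk at 0 to 0.1332, and Cd163 and Marco at 0 in all 6 libraries, while Csf1r, the M-CSF receptor gene, stood at 274 to 407.1 and Cd68 at 706 to 1033.

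The level of the 10 genes differed by more than an order of magnitude within each table when expressed per length (CPM per kilobase of exon, mean ± SD). Over all 16 livers Nfkbia led at 20.79 ± 4.42, far above Cd14 at 3.87 ± 2.35. Birc3 (2.09 ± 0.393), Tlr2 (1.95 ± 1.13), Nfkb2 (1.82 ± 0.359) and Nfkb1 (1.73 ± 0.346) followed within their spread of each other, then Tnfaip3 (1.08 ± 0.577), Tlr4 (0.666 ± 0.274) and Relb (0.579 ± 0.299), and Tnf was last at 0.243 ± 0.387. The cultures are given by group (n = 3). In NFATc3-MKI Cd14 (277.7 ± 17.6) and Tnf (276 ± 19.1) led level with each other, ahead of Nfkbia at 155.9 ± 5.4, and Tnfaip3 was last at 4.45 ± 0.154, below Tlr4 at 5.27 ± 0.31. In their controls Tnf led at 162.3 ± 3.11, Nfkbia (124.6 ± 5.12) and Cd14 (111.2 ± 5.8) followed, and Tlr4 was last at 3.29 ± 0.235. In ASK1-MKI Cd14 (61.6 ± 2.69) and Tlr2 (58.56 ± 0.625) led within their spread of each other, followed by Nfkbia (52.82 ± 0.927) and Tnf (48.44 ± 3.18). In their controls Cd14 led alone at 204.3 ± 9.3, ahead of Tlr2 at 69.05 ± 0.997, and Relb was last in both, at 5.69 ± 0.749 and 6.64 ± 0.417.

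In cultures labelled NFATc3-MKI 4 of the 10 genes rose, namely Cd14, Tlr4, Tnf and Nfkbia, and 1 fell, Tnfaip3. Among all 13363 genes tested there, 33.3% were called changed, 16.5% higher and 16.8% lower, and the median log2 change was 0.16 over the 10 genes and 0.00 over all genes tested. A gene was called at an edgeR adjusted p under 0.05. The comparison asks how cultures that carry the NFATc3-MKI label, in which Nfatc3 itself was lower, differ from their controls.

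Cd14 was the member with the largest change. It stood at 447.3, 489 and 506.7 CPM in the 3 NFATc3-MKI cultures and at 197.3, 199.3 and 181 in their controls, so that the lowest knock-in culture lay far above the highest control. It rose 2.5-fold (log2 change 1.32 ± 0.09 SE, edgeR adjusted p = 4.46e-11), and 1.96% of all genes tested had a larger change in either direction. Tlr4, the lipopolysaccharide receptor, stood at 27.31, 30.17 and 30.4 CPM against 17.58, 19.76 and 17.43 in controls. The groups did not overlap, and Tlr4 rose 1.6-fold (0.68 ± 0.12, adjusted p = 0.000171). Tlr2, the receptor for bacterial lipopeptides, stood at 62.86 ± 3.2 against 58.25 ± 8.22 CPM (SD, n = 3 each) and was not called (0.11, 95% interval −0.11 to 0.33).

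The cytokine gene Tnf stood at 424.4, 446.4 and 486.1 CPM in NFATc3-MKI cultures and at 260.4, 270.4 and 267.1 in controls. All 3 knock-in cultures exceeded all controls, and Tnf rose 1.7-fold (log2 change 0.77 ± 0.08, edgeR adjusted p = 2.08e-07).

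The subunit genes moved little. Nfkb1, which encodes p105 and p50, stood at 153.5, 158 and 162.6 CPM against 131.2, 147.5 and 129.7. These groups did not overlap either, but the difference missed the threshold (log2 change 0.21, edgeR adjusted p = 0.057). It passed with voom (limma adjusted p = 0.0104) and without NFATc3-MKI replicate 2 (edgeR, 0.0401) or control replicate 2 (0.0328), and was 0.18 without control replicate 3 (0.235). Nfkb2, which encodes p100 and p52, stood at 81.56 ± 12.1 against 76.64 ± 1.32 CPM (0.09, 95% interval −0.12 to 0.30). Its lowest value, 67.55 CPM in NFATc3-MKI replicate 2, lay below every control. Without that library the difference was 0.21 (edgeR adjusted p = 0.0483), and without NFATc3-MKI replicate 1 it was 0.03 (0.895). Relb, the partner of p52, stood at 22.09 ± 2.5 against 22.88 ± 1.63 CPM (−0.05, 95% interval −0.32 to 0.21).

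Among the brakes, Nfkbia and Tnfaip3 went opposite ways. Nfkbia stood at 257, 255 and 241 CPM in NFATc3-MKI cultures against 209.9, 194.2 and 197.8 in controls, without overlap, and rose 1.25-fold (log2 change 0.32 ± 0.08, edgeR adjusted p = 0.00354). Tnfaip3 stood at 33.39, 31.25 and 31.78 CPM against 41.16, 41.27 and 35.67, also without overlap, and was lower (log2 change −0.29 ± 0.11, adjusted p = 0.0426). The Tnfaip3 call was weak: it was lost with DESeq2 (adjusted p = 0.0736), with voom (0.0763), with no filter on low counts (0.0787) and, at 0.0598 to 0.14, without any 1 library other than control replicate 3. Birc3, an inhibitor of apoptosis and E3 ubiquitin ligase of the TNF receptor complex, stood at 49.78 ± 6.74 against 49.58 ± 6.33 CPM (0.00, 95% interval −0.23 to 0.24). In all, the values of 5 genes lay higher in the NFATc3-MKI cultures without overlap and those of 1 lay lower. Over all genes tested the shares were 22.9% and 22.9%.

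**Figure D1:**
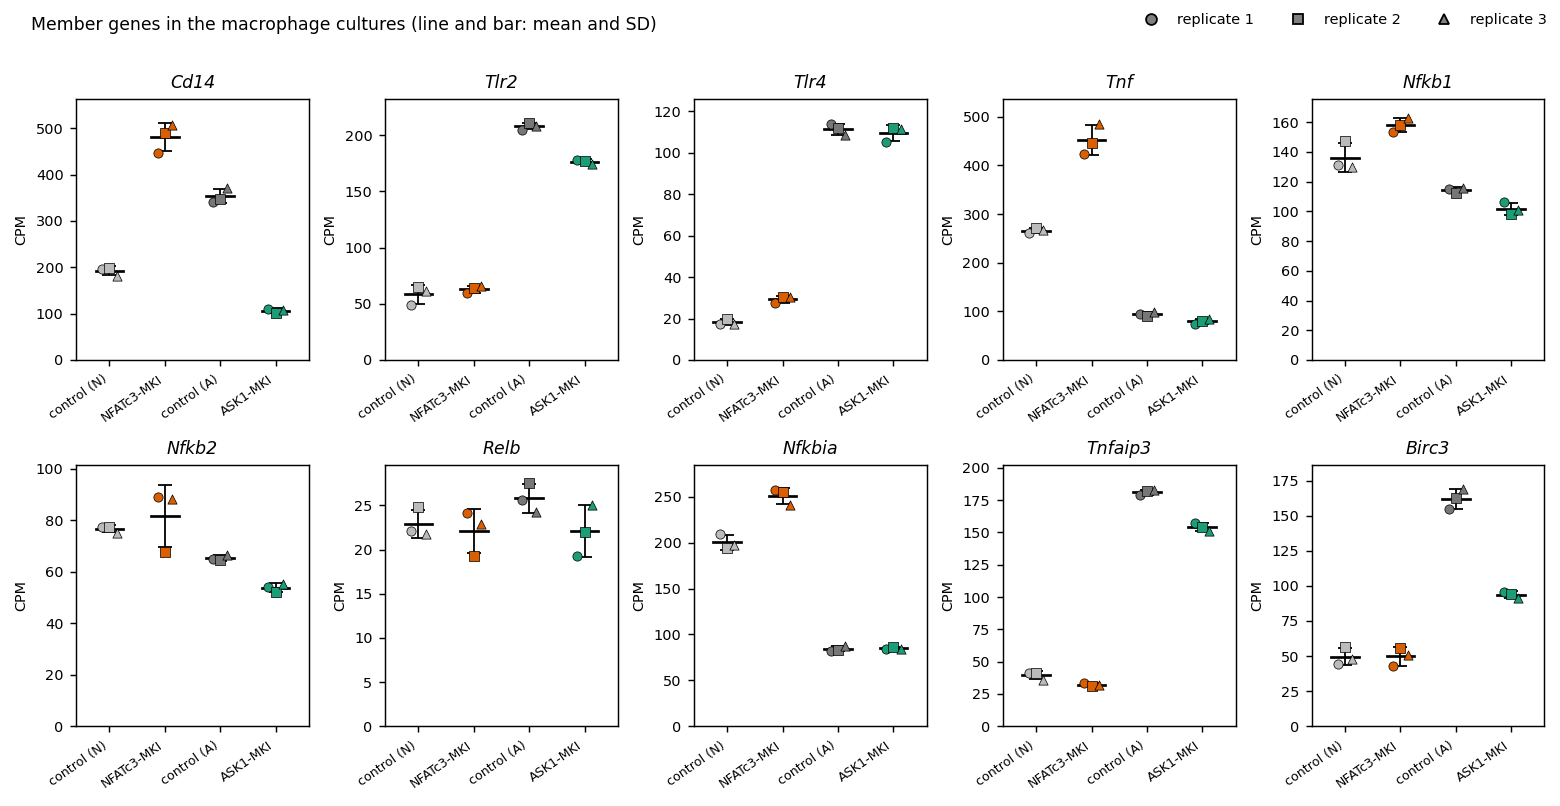
Level of each member gene (CPM, vertical axes from 0, a scale of its own per panel) in the 12 macrophage cultures. Symbols are libraries by replicate number, lines the mean and bars the SD (n = 3). Control (N) and control (A) are the controls of NFATc3-MKI and of ASK1-MKI. Cd14 is at 447.3 to 506.7 CPM in NFATc3-MKI against 181 to 199.3 in its controls, and at 101.8 to 111.1 in ASK1-MKI against 341.2 to 372.

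Further genes of the pathway were counted in 6 lists of 76 genes, of which 70 were tested in this set. There 33 rose and 12 fell, with a median log2 change of 0.29. Over all genes tested 16.5% rose and 16.8% fell. The lists were chosen with earlier results of these data known, so the counts are a description. Of 14 tested NF-kB target genes 10 rose and 1 fell, and of 17 further inhibitors and feedback genes 9 rose and 3 fell. Of 9 other Toll-like receptors and co-receptors 4 rose and 1 fell. Among 22 adaptors and kinases 6 rose and 6 fell, and of 6 genes for TNF receptors, ligands and processing 4 rose. The 3 pathway genes with the smallest p among those that rose were targets. Ptgs2, the inducible cyclooxygenase, stood at 607.8 ± 65.7 CPM, with controls at 196.8 ± 19.4 (1.63 ± 0.10 on the log2 scale, edgeR adjusted p = 1.12e-11). Ccl2, a monocyte chemoattractant, rose from 0.496 ± 0.231 to 15.52 ± 1.88 CPM, and Cxcl2, a neutrophil chemoattractant, from 130.1 ± 12.1 to 352.6 ± 23.5. The 3 with the smallest p among those that fell were Rel, the c-Rel subunit (265.4 ± 5.01 to 186.4 ± 25.5 CPM, −0.51), the adaptor Traf3 (−0.52) and Tab3 (−0.59), which links ubiquitin chains to the kinase TAK1.

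Marker lists moved in the same cultures, where 16.5% of all genes tested rose and 16.8% fell. Of the 8 macrophage markers 5 were tested and 4 of them rose. The summed level was 1800 to 1974 CPM in NFATc3-MKI and 1430 to 1528 in controls, and Mertk, Cd163 and Marco were at or near 0 in both groups. Spp1, a marker of monocyte-derived macrophages, stood at 16960 to 21530 against 4001 to 4555 CPM. Spp1 made up most of the summed level of its list of 8 genes, 17920 to 22530 against 4844 to 5456 CPM. The sum therefore cannot show whether the other genes of that list rose. Of 8 neutrophil markers the defining genes S100a8, S100a9, Retnlg, Mmp8 and Camp were at 0 in all 6 libraries, and the summed level was 13.58 to 16.41 against 7.33 to 11.04 CPM. The part of the macrophage markers in the changes of Cd14, Tlr4 and Tnf was not tested.

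In cultures labelled ASK1-MKI 8 of the 10 genes fell, Cd14 and Tnf among them, and none rose. Only Tlr4 and Nfkbia were not called. Among the 11380 genes tested in that set 49.1% were called, 24.6% higher and 24.5% lower, so a call is common there, and the median log2 change was −0.23 over the 10 genes and 0.00 over all genes tested. Most of the falls were small: 6 of the 8 lay between −0.28 and −0.17 on the log2 scale. Libraries of a group varied little here (edgeR's common biological coefficient of variation 0.0214, against 0.0892 in the NFATc3-MKI set and 0.208 in livers). As the spread may be technical, the small SEs and p-values need not measure differences between animals.

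Cd14 again changed most. It stood at 111.1, 101.8 and 107.1 CPM in ASK1-MKI cultures and at 341.2, 348.5 and 372 in their controls, a gap many times the spread within either group. The fold was 0.301 (log2 change −1.73 ± 0.03, edgeR adjusted p = 1.88e-69), and 2.59% of all genes tested changed more in either direction. Tlr2 stood at 178.1, 176.9 and 174.5 CPM against 204.9, 210.9 and 208.5, without overlap (−0.24 ± 0.03, adjusted p = 5.21e-13). Tlr4 stood at 105, 111.9 and 111.2 against 113.6, 112 and 108.3 CPM, with overlapping groups. Its difference was −0.02 (95% interval −0.09 to 0.05).

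Tnf stood at 74.13, 79.47 and 84.55 CPM in ASK1-MKI cultures and at 95.11, 91.3 and 98.6 in controls. Every knock-in culture lay below every control, and Tnf fell (log2 change −0.26 ± 0.04, edgeR adjusted p = 1.21e-08).

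All 3 subunit genes on the list were lower. Nfkb2 stood at 53.98, 52.04 and 55.41 against 65.02, 64.44 and 66.53 CPM (log2 change −0.28 ± 0.05, edgeR adjusted p = 4.91e-08). Nfkb1 stood at 106.3, 98.34 and 101.2 against 115, 112.6 and 115.8 CPM (−0.17 ± 0.04, adjusted p = 1.98e-05). Neither pair of groups overlapped. Relb stood at 19.27, 21.94 and 25.08 against 25.65, 27.49 and 24.27 CPM, and here ASK1-MKI replicate 3 lay above control replicate 3. The Relb fall (−0.22 ± 0.07, adjusted p = 0.00804) was lost with DESeq2 (adjusted p = 0.0528) and, in edgeR, without ASK1-MKI replicate 1 (−0.13, 0.162) or control replicate 2 (−0.17, 0.0644).

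Birc3 was the feedback gene with the largest change, at 95.79, 94.35 and 91.04 CPM in ASK1-MKI cultures and 154.6, 162.7 and 168.9 in controls. The groups were far apart (fold 0.578, log2 change −0.79 ± 0.03, edgeR adjusted p = 1.58e-45), and 8.31% of genes tested changed more. Its neighbour and paralog Birc2 could share reads with it. Tnfaip3 stood at 157.7, 154.3 and 150.9 against 178.9, 181.8 and 182.8 CPM, without overlap (−0.23 ± 0.03, adjusted p = 1.15e-11). Nfkbia stood at 84.18, 86.77 and 84.19 against 82.4, 83.17 and 87.93 CPM. Its control range enclosed all 3 knock-in values, and the difference was 0.01 (95% interval −0.07 to 0.09). In all, 7 of the 10 genes lay lower in ASK1-MKI cultures without overlap, where 27% of all genes tested did.

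**Figure D2:**
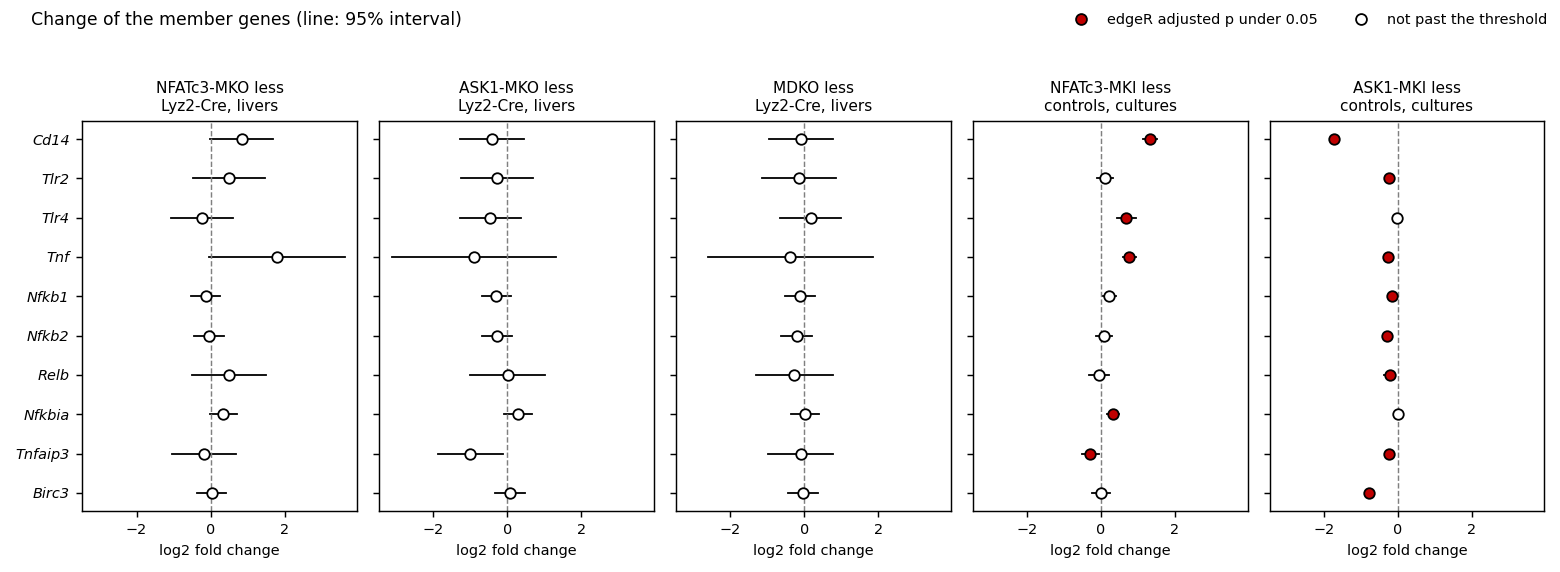
Log2 fold change of each member gene (horizontal axis) with its 95% interval (line) in the 3 liver comparisons with Lyz2-Cre and the 2 culture comparisons, from edgeR. Filled points passed an adjusted p of 0.05: none in the livers, 5 in NFATc3-MKI and 8 in ASK1-MKI. Cd14 lies at 1.32 in NFATc3-MKI and −1.73 in ASK1-MKI, and the liver intervals are wide, from −0.05 to 3.62 for Tnf in NFATc3-MKO.

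Of the 76 further pathway genes 74 were tested in the ASK1-MKI set, and 21 rose and 33 fell (median log2 change −0.07). Over all genes tested there 24.6% rose and 24.5% fell. The lists differed in direction. Of 11 other Toll-like receptors and co-receptors 7 rose and 1 fell, while of 18 further inhibitors and feedback genes 2 rose and 10 fell. The 16 NF-kB targets were all called, 6 higher and 10 lower. Both other subunit genes, Rela and Rel, fell, and among 22 adaptors and kinases 4 rose and 9 fell. The 3 pathway genes with the smallest p among those that fell were Cxcl2, at 2.41 ± 0.356 CPM, with controls at 100 ± 6.06 (−5.37 ± 0.08 on the log2 scale, edgeR adjusted p = 1.43e-94), Lcn2, an iron-scavenging protein (608.5 ± 17.9 to 253.8 ± 4.47 CPM, −1.26), and Ptgs2 (33.53 ± 0.855 to 2.79 ± 0.873 CPM, −3.58). The 3 with the smallest p among those that rose were Tlr13, a receptor for bacterial ribosomal RNA (767.4 ± 9.08 to 1050 ± 6.51 CPM, 0.45 ± 0.02), Ccl2 (38.1 ± 1.4 to 74.39 ± 0.931 CPM, 0.96) and Cd180, a Toll-like receptor relative (419.1 ± 3.21 to 563.3 ± 2.3 CPM, 0.43).

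Markers moved here too, in a set where 24.6% of all genes tested rose and 24.5% fell. Of the 8 macrophage markers 4 rose and 3 fell, and their summed level was 35580 to 37560 CPM in ASK1-MKI and 33840 to 36160 in controls. Marco, a scavenger receptor, stood at 237.1 to 255.5 against 727.9 to 754.3 CPM. Of the neutrophil list 4 of 8 genes were tested and 3 fell, with a summed level of 288.1 to 300 against 1196 to 1243 CPM. Mmp8 stood at 128.9 to 136.1 against 979.1 to 1028 CPM and made up most of the sum in the controls, whereas Ly6g, Retnlg and Camp were below 1 CPM in every library. Of the 6 Kupffer cell markers 3 were tested and all 3 fell (summed level 53.37 to 57.56 against 159.2 to 160.6 CPM). Clec4f, of the same list, was at 0 in every library of both groups. Marker RNA does not show that neutrophils or Kupffer cells were present. Whether these markers bear on the fall of Cd14 was not tested.

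**Figure D3:**
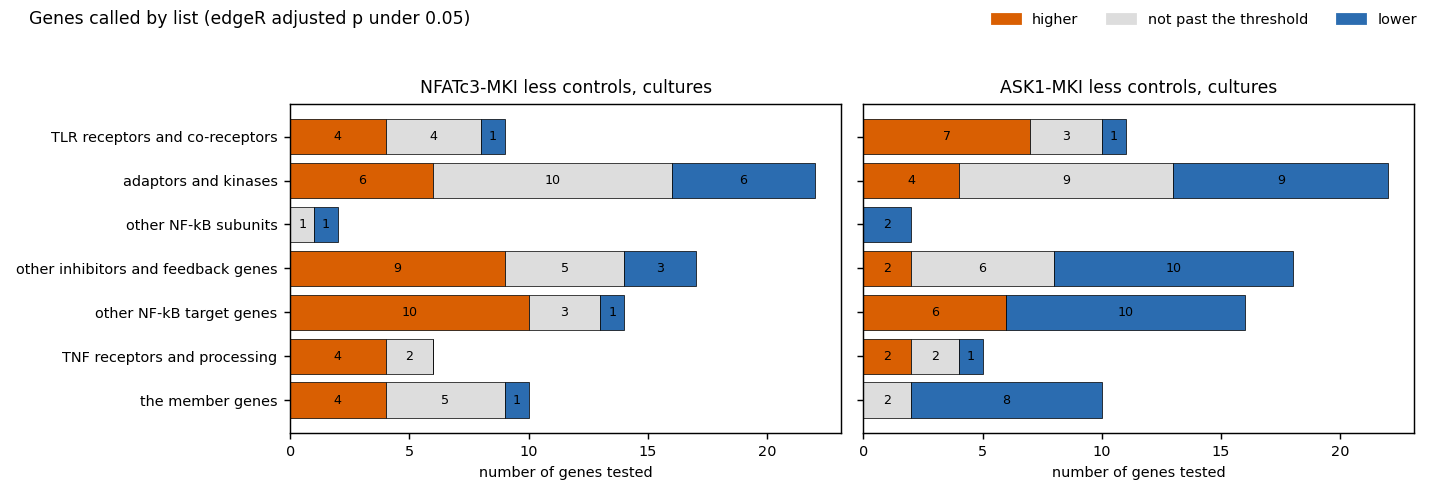
Number of genes tested in each list (horizontal axis), split into those called higher, those not past the threshold and those called lower (edgeR adjusted p under 0.05), in the 2 culture comparisons. The NF-kB targets split 10 higher to 1 lower in NFATc3-MKI and 6 to 10 in ASK1-MKI, and the member genes 4 to 1 and 0 to 8. Over all genes tested 16.5% were higher and 16.8% lower in NFATc3-MKI, and 24.6% and 24.5% in ASK1-MKI.

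The 2 sets of control cultures carry the same genotype label, but their member levels lay far apart. The tables were counted over different gene sets, so the values stand side by side without a test. The macrophage markers also stood apart. Their summed level was 1430 to 1528 CPM in the controls of NFATc3-MKI and 33840 to 36160 in those of ASK1-MKI. The part of this difference in the member levels was not tested. Cd14 was at 192.5 ± 10 CPM in the controls of NFATc3-MKI and 353.9 ± 16.1 in those of ASK1-MKI. Tlr2 was at 58.25 ± 8.22 and 208.1 ± 3.02, Tlr4 at 18.26 ± 1.3 and 111.3 ± 2.72, and Tnfaip3 at 39.37 ± 3.2 and 181.2 ± 2.03. Birc3 was at 49.58 ± 6.33 and 162.1 ± 7.17. Tnf went the other way, at 266 ± 5.1 and 95 ± 3.65, as did Nfkbia, at 200.6 ± 8.22 and 84.5 ± 3. Nfkb1 (136.1 ± 9.87 and 114.5 ± 1.67), Nfkb2 (76.64 ± 1.32 and 65.33 ± 1.08) and Relb (22.88 ± 1.63 and 25.8 ± 1.62) were nearer to each other. The changes given above therefore start from different control levels, and whether they differ between the 2 knock-ins was not tested.

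The promoters of the member genes were read for the letters that NF-kB binds, as a description. RefSeq promoter windows (build GRCm38.p6, the mm10 assembly) were matched by symbol for 6 of the 10: Tlr2, Tnf, Nfkb2 with 3 starts, Nfkbia, Tnfaip3 with 2 starts, and Birc3. Cd14, Tlr4, Nfkb1 and Relb had no entry. The 250 bases upstream of each start were searched on both strands for the NF-kB p50-p65 consensus (GGG, a purine, any 2 bases, 2 pyrimidines, CC) and for a narrower motif (GGG, any 2 bases, TTTCC), which also matches the consensus where the first of its free bases is A or G. The consensus was found in 4 of the 6 genes, Tlr2, Nfkb2, Nfkbia and Tnfaip3, and in 7.25% of all 32851 windows. The narrower motif was found in 3 of the 6 and in 1.41% of all windows. The counts are of genes, which had 9 windows among them, whereas the shares are of single windows. Several of these genes were already known as NF-kB targets, so matches in them are no result of these data. Whole windows are shown of Nfkbia as a gene with a match whose level did not move in ASK1-MKI and of Tnf as a gene without a match whose level moved in both sets. Both lie on the minus strand, Nfkbia at chr12:55492648-55492897 and Tnf at chr17:35202008-35202257, read 5′ to 3′ toward the start. Capitals mark the bases of a match.
Nfkbia: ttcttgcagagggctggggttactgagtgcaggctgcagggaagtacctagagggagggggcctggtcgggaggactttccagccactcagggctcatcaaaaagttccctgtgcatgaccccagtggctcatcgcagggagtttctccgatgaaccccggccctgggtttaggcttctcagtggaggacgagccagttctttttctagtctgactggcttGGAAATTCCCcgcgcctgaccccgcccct
Tnf: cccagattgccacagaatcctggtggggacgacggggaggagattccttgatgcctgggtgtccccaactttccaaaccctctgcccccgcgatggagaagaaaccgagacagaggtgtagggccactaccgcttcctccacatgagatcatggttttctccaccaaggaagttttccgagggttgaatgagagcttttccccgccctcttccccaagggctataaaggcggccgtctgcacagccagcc
For the other genes 30 bases around a match are shown, Tlr2 from chr3:83841762-83841791 (minus strand), Nfkb2 before its first start from chr19:46304688-46304717 and chr19:46304707-46304736 (plus strand), and Tnfaip3 before its first start from chr10:19015516-19015545 and chr10:19015411-19015440 (minus strand).
Tlr2: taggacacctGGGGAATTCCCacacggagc
Nfkb2: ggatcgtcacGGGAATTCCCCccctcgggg
Nfkb2: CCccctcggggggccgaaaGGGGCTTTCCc
Tnfaip3: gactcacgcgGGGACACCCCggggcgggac
Tnfaip3: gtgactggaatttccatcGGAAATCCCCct
The Nfkbia match GGAAATTCCC began 29 bases upstream of the start and the Tnfaip3 match GGAAATCCCC 12 bases upstream, while the Tlr2 match GGGGAATTCC lay 173 bases upstream. In ASK1-MKI cultures 3 of the 4 genes with a match fell, Tlr2, Nfkb2 and Tnfaip3, and Nfkbia was not called. Birc3 and Tnf, the 2 genes that held neither motif in these windows, both fell. A match describes letters and not binding, and the windows leave out more distant enhancers.

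In the mm10 annotation 9 of the 10 members lie at chr3:83836272-83841767 (Tlr2), chr4:66827584-66930284 (Tlr4), chr17:35199381-35202007 (Tnf), chr3:135584655-135691547 (Nfkb1), chr19:46304320-46312385 (Nfkb2), chr7:19606217-19629438 (Relb), chr12:55489410-55492647 (Nfkbia), chr10:19000910-19015657 (Tnfaip3) and chr9:7848699-7873186 (Birc3), and the position of Cd14 is not given here. Values are sums over a gene's exons. Exons of Nfkb2 overlap those of Psd and AC114539.1 on the other strand, and the strand setting of the counting is not given in the sources used here, so Nfkb2 counts may hold reads of these genes.

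In the livers none of the 10 genes was called in any comparison, and the spread between livers of a group was large. By their labels the livers compare loss of myeloid NFATc3, of ASK1 or of both under the diet. As given above, Nfatc3 was not called lower in NFATc3-MKO livers, and Map3k5 was higher in ASK1-MKO livers. The share of all 13309 genes called was 8.45% for NFATc3-MKO against Lyz2-Cre, 8.46% for ASK1-MKO and 0% for MDKO, where 35 genes had an unadjusted p under 0.05 in edgeR and DESeq2 and voom called 0 genes. It was 12.8% for NFATc3-MKO against ASK1-MKO, 7.35% for MDKO against NFATc3-MKO, 7.72% for MDKO against ASK1-MKO and 16.2% for the interaction, which asks whether the effects of both losses add up. At an unadjusted edgeR p under 0.05 the member genes numbered 0, 1 and 0 in the first 3 comparisons, where 26.6%, 23.4% and 0.263% of all genes did, and 2, 2, 1 and 1 in the others, where 30.3%, 26.2%, 22.8% and 30.4% did. DESeq2 called 2 of the 10 in NFATc3-MKO against ASK1-MKO and 0 in the rest. These comparisons share livers and are not independent of each other. The interaction adds Lyz2-Cre to MDKO and subtracts the single knockouts. Same-numbered Lyz2-Cre and MDKO livers were alike across all genes but were fitted as separate livers. The SE of the interaction may therefore be too small and its calls too many. In whole liver, fewer cells of a type and less RNA per cell cannot be told apart.

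Cd14 came nearest to a call. It stood at 3.90, 17.93, 12.02 and 9.12 CPM in NFATc3-MKO replicates 1 to 4, at 3.78, 11.34, 5.29 and 3.46 in Lyz2-Cre, at 3.48, 4.63, 4.93 and 4.98 in ASK1-MKO and at 4.90, 8.47, 5.07 and 4.00 in MDKO. NFATc3-MKO replicates 2, 3 and 4 lay above every ASK1-MKO and MDKO liver, while replicate 1 lay among them and kept the groups overlapping. Across all genes replicate 1 was also closer to an ASK1-MKO liver than to its own group, as given above. Against Lyz2-Cre the difference was 0.84 ± 0.40 (log2, edgeR adjusted p = 0.191), and single livers moved it both ways: it was 1.37 without Lyz2-Cre replicate 2 (adjusted p = 0.0363), 1.13 without NFATc3-MKO replicate 1 (0.0495) and 0.47 without NFATc3-MKO replicate 2 (0.49). Against ASK1-MKO it was 1.25 ± 0.41 (adjusted p = 0.0516), and this difference passed the threshold with DESeq2 (0.017), with voom (limma adjusted p = 0.0306) and without NFATc3-MKO replicate 1 (1.52, edgeR 0.00828). Without NFATc3-MKO replicate 2 it was 0.87 (edgeR adjusted p = 0.161).

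The Toll-like receptors were not called and did not separate the groups. Tlr2 stood at 2.67, 15.63, 5.36 and 8.66 CPM in NFATc3-MKO, at 3.14, 10.15, 4.12 and 5.36 in Lyz2-Cre, at 5.97, 3.47, 4.76 and 4.50 in ASK1-MKO and at 2.78, 8.72, 3.69 and 5.12 in MDKO. The highest value in 3 of the 4 groups was that of replicate 2. Tlr4 ranged from 1.37 to 5.83 CPM in NFATc3-MKO, from 2.49 to 5.69 in Lyz2-Cre, from 2.31 to 3.47 in ASK1-MKO and from 2.08 to 5.93 in MDKO. Its difference from Lyz2-Cre was −0.23, −0.46 and 0.17 in NFATc3-MKO, ASK1-MKO and MDKO, with 95% intervals that all included 0 and reached −1.06, −1.29 and 1.01.

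Tnf was close to the limit of detection in liver. It stood at 0.0966, 2.57, 0.814 and 0.428 CPM in NFATc3-MKO replicates 1 to 4, at 0.0804, 0.850, 0 and 0.155 in Lyz2-Cre, at 0.265, 0.1, 0.102 and 0.119 in ASK1-MKO and at 0.139, 0.450, 0.115 and 0.0833 in MDKO. Only 5 livers lay above the filter's level, NFATc3-MKO replicates 2, 3 and 4, Lyz2-Cre replicate 2 and MDKO replicate 2, and Tnf was tested because of them. NFATc3-MKO against Lyz2-Cre gave 1.79 ± 0.87 (edgeR adjusted p = 0.199), 3.59 without Lyz2-Cre replicate 2 (0.0394) and 0.65 without NFATc3-MKO replicate 2 (0.665). Against ASK1-MKO it gave 2.70 ± 0.92 (0.0629), which passed with DESeq2 (0.0335) and without NFATc3-MKO replicate 1 (3.08, edgeR 0.0166). That difference was 1.55 without NFATc3-MKO replicate 2 (edgeR adjusted p = 0.256) and 1.69 with voom (limma adjusted p = 0.129).

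The subunit genes stayed within their spread. Nfkb1 averaged 20.88 ± 6.78 CPM in NFATc3-MKO, 22.83 ± 4.35 in Lyz2-Cre, 18.52 ± 1.63 in ASK1-MKO and 21.12 ± 2.57 in MDKO (SD, n = 4). Nfkb2 averaged 8.80 ± 2.56, 9.09 ± 1.82, 7.49 ± 0.573 and 7.93 ± 1.06 in the same order. Relb averaged 3.04 ± 1.71, 2.13 ± 0.788, 2.15 ± 0.774 and 1.67 ± 1.15, with its lowest value, 0.346 CPM, in the shallow library MDKO replicate 3. No subunit gene had an edgeR adjusted p under 0.327 in any liver comparison.

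Among the brakes Tnfaip3 was the gene whose groups separated. It stood at 5.33, 3.07, 4.93 and 5.45 CPM in ASK1-MKO and at 5.95, 15.08, 7.95 and 8.61 in Lyz2-Cre, so that every ASK1-MKO liver lay below every control, as did 8.81% of all genes tested. The difference of −1.0 ± 0.42 was not called (edgeR adjusted p = 0.153). It passed with voom (limma adjusted p = 0.0443) and with only these groups in the fit (edgeR, 0.0434), but shrank to −0.66 without Lyz2-Cre replicate 2 (edgeR adjusted p = 0.388) and to −0.50 without the 4 livers numbered 2 (0.271). MDKO livers, at 5.55, 10.89, 9.10 and 9.62 CPM, lay above every ASK1-MKO liver (0.91 ± 0.42, adjusted p = 0.21, where 8.6% of genes lay higher without overlap). That difference also passed with voom (0.0238) and with only these groups (0.0338), and was 0.61 without the livers numbered 2 (0.193). It was not independent of the difference from Lyz2-Cre, because same-numbered MDKO and Lyz2-Cre livers were alike across all genes. NFATc3-MKO livers stood at 4.09, 18.46, 4.25 and 6.63 CPM. Replicate 2 lay above every other liver, while replicates 1, 3 and 4 lay below Lyz2-Cre replicates 2, 3 and 4. The interaction was 1.08 ± 0.59 (edgeR adjusted p = 0.228) and 1.82 without NFATc3-MKO replicate 2 (0.00861). It ran from 0.73 to 1.82 over 24 alternatives, and 3 of them called it.

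Nfkbia averaged 37.77 ± 12.3 CPM in NFATc3-MKO and 36.28 ± 4.52 in ASK1-MKO, against 29.69 ± 1.83 in Lyz2-Cre and 30.16 ± 2.95 in MDKO. Its interaction was −0.61 ± 0.25 (edgeR adjusted p = 0.104), −0.78 without NFATc3-MKO replicate 4 (adjusted p = 0.0233), −0.40 without NFATc3-MKO replicate 3 (0.186) and −0.23 with voom (limma adjusted p = 0.409). The NFATc3-MKO livers ranged from 25.83 to 53.04 CPM and so enclosed all 4 controls. Birc3 was the steadiest of the 10, at group means of 10.11 to 10.89 CPM, and its differences from Lyz2-Cre were 0.02, 0.07 and −0.03 in NFATc3-MKO, ASK1-MKO and MDKO. The liver values of Birc3 were not whole numbers, and reads of Birc2 could be split with it.

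**Figure D4:**
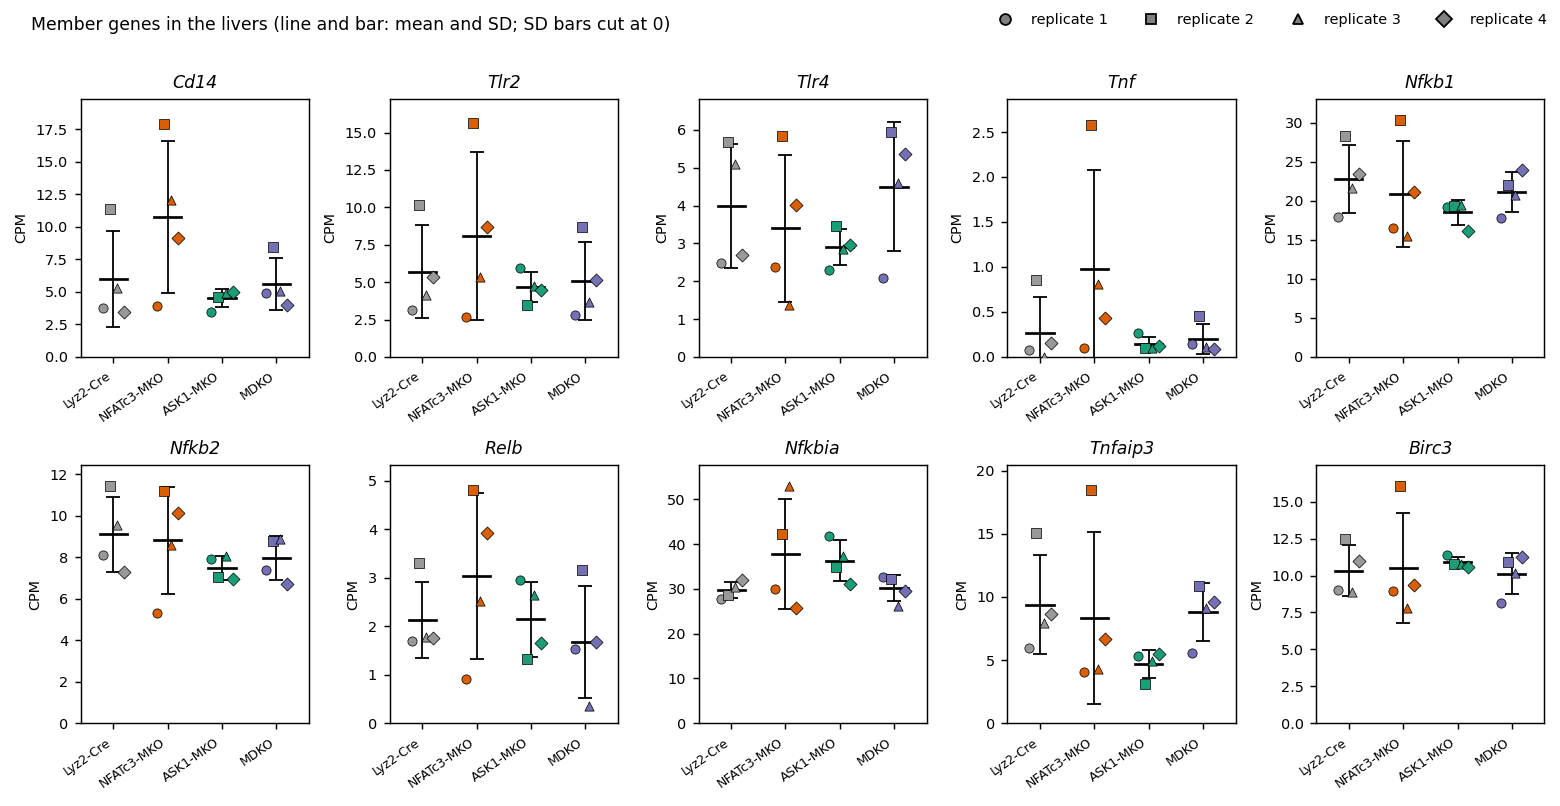
Level of each member gene (CPM, vertical axes from 0, a scale of its own per panel) in the 16 livers by group. Symbols are replicate numbers, lines the mean and bars the SD (n = 4, bars cut at 0). Squares, the livers numbered 2, are the highest for 9 of the 10 genes in Lyz2-Cre and in NFATc3-MKO.

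Much of the liver spread ran along single livers. Replicate 2 was the highest of its group for 9 of the 10 genes in Lyz2-Cre, for 9 in NFATc3-MKO and for 6 in MDKO, but for 1 in ASK1-MKO. Same-numbered Lyz2-Cre and MDKO livers were alike across all genes, so these groups are not independent observations of this pattern. Some marker lists were highest in the same livers and others were not. The summed macrophage list was 414.7 CPM in Lyz2-Cre replicate 2 (147.5 to 249.7 in the others of the group), 754 in NFATc3-MKO replicate 2 (189.7 to 318.4) and 373.9 in MDKO replicate 2 (124.3 to 311.3). The summed neutrophil list was 14.53 CPM (4.42 to 5.57), 47.98 (9.05 to 24.01) and 10.97 (3.52 to 4.95) in the same livers. ASK1-MKO livers held 157.2 to 224.1 and 3.56 to 5.37 CPM of these lists. Summed markers of monocyte-derived macrophages were 259 CPM in Lyz2-Cre replicate 2 (92.38 to 121.8 in the others) and 853.7 in NFATc3-MKO replicate 2 (125.2 to 496.1), but in MDKO replicate 1 was the highest, at 217.9, and replicate 2 stood at 116.3. These markers include Spp1, which the bile duct list shares. The summed bile duct list was also highest in MDKO replicate 1 (191.5 CPM, against 63.22 to 81.43 in the other MDKO livers). The Kupffer cell list was highest in replicate 2 of Lyz2-Cre (374.2 CPM) and MDKO (460.9), whereas NFATc3-MKO replicate 2, at 164.4, was not. Between groups, all 8 markers of monocyte-derived macrophages lay higher in NFATc3-MKO than in Lyz2-Cre (median log2 change 1.18, against 0.03 over all genes tested), although Spp1 was the 1 that passed. Against ASK1-MKO 5 of the 8 rose, Ccr2, Trem2, Gpnmb, Spp1 and Itgax, as did 4 of 5 tested neutrophil markers. Over all genes tested, 8.45% were called in NFATc3-MKO against Lyz2-Cre and 12.8% against ASK1-MKO. Of the bile duct list, which shares Spp1, 2 of 5 rose against Lyz2-Cre, as did 2 of 5 tested B and plasma cell markers (Jchain and Igkc) and 2 of 5 tested neutrophil markers (S100a8 and S100a9). The hepatocyte genes Hnf4a and Ass1 fell, 2 of 8. Of 7 sinusoidal endothelial genes 2 fell, Clec4g and Fcgr2b, and of 7 stellate cell genes 1 rose, Acta2, while no T and NK cell, dendritic cell or erythroid marker was called. Of the Kupffer cell list 2 of 6 genes were lower in NFATc3-MKO than in Lyz2-Cre, with summed levels of 160.8 to 209.6 against 196.7 to 374.2 CPM. The part of any of these cells in the levels of Cd14, Tlr2 and Tnf was not tested.

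A few other pathway genes were called in the livers, out of 73 tested. Of all genes tested 8.45% were called in NFATc3-MKO and 8.46% in ASK1-MKO against Lyz2-Cre. The share was 7.35% for MDKO against NFATc3-MKO, 7.72% for MDKO against ASK1-MKO, 12.8% for NFATc3-MKO against ASK1-MKO and 16.2% for the interaction. No count of pathway genes given here exceeded the share of its comparison, so the genes are named as a description. In NFATc3-MKO against Lyz2-Cre Socs3, a feedback inhibitor of cytokine signalling, rose (7.48 ± 1.32 against 3.52 ± 1.24 CPM, log2 change 1.08 ± 0.27, edgeR adjusted p = 0.0232), as did Otulin, which trims linear ubiquitin chains (0.54), and the TNF receptor gene Tnfrsf1a (0.33), while the kinase gene Irak4 fell (−0.69 ± 0.16, 0.0145). In ASK1-MKO 4 genes rose: Socs3 (1.16 ± 0.27, 0.0134), Lbp, which carries lipopolysaccharide to CD14 (76.8 ± 12.8 against 47.73 ± 11.8 CPM, 0.69), the adaptor Tab2 (0.55) and the inhibitor Tollip (0.39). In MDKO against Lyz2-Cre none was called. MDKO lay higher than NFATc3-MKO at Irak4 (0.66) and lower at Otulin (−0.59) and Tnfrsf1a (−0.33). It lay lower than ASK1-MKO at Lbp (−0.73), Tab2 (−0.55), Tollip (−0.41) and Socs3 (−0.94). NFATc3-MKO exceeded ASK1-MKO at 6 pathway genes and lay lower at 3. The 3 with the smallest p were Nfkbie (1.32 ± 0.28, adjusted p = 0.00598) and Tnip1 (1.09), both inhibitors, and the target Lcn2 (186.4 ± 103 against 19.05 ± 3.47 CPM, 3.29 ± 0.89), and Lbp (−0.93), Dusp1 (−1.08) and Irak1 (−0.36) were lower. In the interaction 2 genes were higher than additive, Irak4 (0.92) and Vcam1 (0.96), and 8 lower. The lower genes were led by Socs3 (−2.02 ± 0.38, edgeR adjusted p = 0.00201), Tollip (−0.67) and Otulin (−0.84). The limit of the interaction given above holds for these calls.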

How the data were processed

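The 10 member genes, the pathway and marker lists and the tests were chosen with earlier results of these data known. Per the labels' protocols, messenger RNA was made into directional dUTP libraries. HISAT2 and mm10 are named in the submitters' processing notes. Neither the counting program nor its annotation or use of strand is given in the sources used here. The authors deposited expected counts (estimated counts, 85.42% of them whole) per gene symbol for the livers and raw counts per Ensembl identifier for each culture set, and no normalisation by them was found. The liver values were rounded to whole numbers.

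Each table was fitted on its own with edgeR 4.0.16 in R 4.3.3: 13309, 13363 and 11380 genes passed filterByExpr, TMM factors scaled the libraries, and groups were compared by the robust quasi-likelihood F test. P-values were adjusted by Benjamini and Hochberg over all genes of a comparison and called under 0.05. All 16 livers entered 1 fit as separate libraries, without a pairing of Lyz2-Cre with MDKO. Each log2 change is the first group named less the second, and its standard error (SE) is its size over the square root of F. Levels are CPM, that is counts scaled to the library size, as mean ± SD. The scripts were tested on simulated data. Of the other pathway genes, those called are named, or the 3 with the smallest p in each direction where over 6 were called. Names and positions came from the GENCODE M21 annotation of mm10.

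Same-numbered Lyz2-Cre and MDKO livers deviated together from their group means (correlations across genes 0.24 to 0.53 in 4 pairs), so their numbers were taken to pair these groups. The labels state no pairing. In that pair all 8 livers correlated best with their own number. In Lyz2-Cre with ASK1-MKO 6 of 8 did (same-number correlations −0.02 to 0.16), and in NFATc3-MKO with ASK1-MKO 5 of 8 (0.04 to 0.20). In the other pairs of liver groups 2 or 3 of 8 did, and in the cultures 0 or 2 of 6. These groups were not taken to pair, although a weak link by number remains possible. Alternatives were DESeq2's size factors and Wald test (1.42.0), limma's voom with quality weights (3.58.1), other filters, a threshold of 0.1, the replicate block, fits limited to the groups compared, and the removal of each library. Fits without MDKO livers or without the 4 livers numbered 2, and the block within MDKO and Lyz2-Cre alone, were chosen after seeing the data.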

Additional observations from a re-analysis of the deposited data

Results flagged for a closer look

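In 4 of the 40 sets of 4 livers (10 genes in 4 groups), 1 library lay far from the other 3 by Dixon's criterion, which chance meets in about 1 of 20 sets. Relb stood at 3.31 CPM in Lyz2-Cre replicate 2 and at 1.69 to 1.78 in the other 3. Tnf stood at 0.450 CPM in MDKO replicate 2 and at 0.0833 to 0.139 in the others, and at 0.265 CPM in ASK1-MKO replicate 1 and at 0.1 to 0.119 in the others, levels that rest on few counts. Nfkb1 stood at 16.08 CPM in ASK1-MKO replicate 4 and at 19.17 to 19.51 in the other 3.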

How the results depend on the processing

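Among the alternatives, no called member gene changed direction. Of the 10 genes 5 were called in NFATc3-MKI cultures (4 to 6 under the alternatives, also 4 to 6 with a library left out) and 8 in ASK1-MKI cultures (7 to 8, and 7 to 8). Cd14, Tlr4, Tnf and Nfkbia in the first and Cd14, Tlr2, Tnf, Nfkb1, Nfkb2, Tnfaip3 and Birc3 in the second were called under all 13 alternatives. In the livers, with 0 called, leaving out a library gave 0 to 2 for NFATc3-MKO against Lyz2-Cre, 0 to 2 against ASK1-MKO, 0 to 1 for MDKO against NFATc3-MKO and 0 to 1 for the interaction. For NFATc3-MKO against ASK1-MKO, DESeq2 called 2 (Cd14 and Tnf), voom 1 (Cd14) and a threshold of 0.1 called 2. For ASK1-MKO against Lyz2-Cre, for MDKO against ASK1-MKO and for the interaction voom called 1 (Tnfaip3), and so did the fit of only the 2 groups compared in the first pair, 1, and in the second, 1. Without the 4 livers numbered 2 the interaction also had 1 (Tnfaip3, edgeR adjusted p = 0.0411). The cause of these shifts was not tested.

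With the replicate number as a block, 1 gene was called for NFATc3-MKO against ASK1-MKO (Cd14, 1.10, edgeR adjusted p = 0.0158), and Tnfaip3 in NFATc3-MKI was lost (adjusted p = 0.0513). The labels link these groups by nothing but the number, and their numbers paired less clearly than those of MDKO and Lyz2-Cre. For MDKO against Lyz2-Cre, the groups whose numbers pair, the block left the count at 0, also in a fit of these groups alone. Tnf in liver was limited by depth, at 0 to 68 counts a library.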
